A study of Mus musculus with 27 samples.

Results

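The 10 genes described here are known targets of p53, the transcription factor encoded by Trp53: Trp53inp1, Cdkn1a, Mdm2, Ccng1, Bbc3, Bax, Phlda3, Eda2r, Zmat3 and Sesn2. They are 10 of the 23279 genes listed for each library, they were picked by name with results of these libraries already known, and all 10 passed the filter on low values, under which 14432 genes were tested. RNA was sequenced from limb bud-like tissue grown from mouse embryonic stem (ES) cells and from embryonic tissues, in 9 groups. ES-FLB and ES-HLB, the forelimb and hindlimb types (together ES-LBs), came from 1 knock-in line, EB5 Hand2::GFP +/-, and their GFP+ mesenchyme was dissociated with trypsin and FACS-sorted on day 9 from many pooled aggregates. Both types had received BMP4 and Matrigel, and later LDN193189, Wnt3 and, per the study's methods, hydrocortisone and methylcellulose, which no embryonic group received. ES-FLB had in addition received retinoic acid and ES-HLB a retinoic acid antagonist. The embryonic groups were early forelimb bud (early FLB), early hindlimb bud (early HLB), E10.5 FLB, E10.5 HLB, branchial arch (BA), cardiac tissue (Ca) and tail bud (TB). They were amputated from Slc:ICR embryos without any sorting named, and the labels give E10.0 for the early limb buds and E10.5 for the rest. The study's figure legend places the early FLB at an earlier stage than the early HLB, so limb type and stage cannot be told apart between those groups. Line, culture, dissociation and sorting all differ between the ES-LBs and the embryonic groups and cannot be told apart either.

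p53 is kept low in unstressed cells by Mdm2, a ubiquitin ligase whose gene p53 itself activates, which closes a feedback loop. DNA damage and other stresses stabilise p53, which then raises genes that stop the cell cycle, promote cell death or repair, and adjust metabolism. In mouse embryos the loss of Mdm2 is lethal unless p53 is also lost, so the balance between both proteins is needed from the earliest stages.

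p53 binds a sequence of paired 10-base elements that may be separated by a short spacer. The stretches upstream of the annotated starts of Cdkn1a and Ccng1 are shown because they were the ones, among the members with a promoter window, in which this sequence was found with at most 1 mismatch. Each stretch covers the 250 bases before the start (RefSeq, GRCm38.p6), at chr17:29090729-29090978 on the plus strand for Cdkn1a and at chr11:40755287-40755536 on the minus strand for Ccng1, and capitals mark the matching elements.
Cdkn1a: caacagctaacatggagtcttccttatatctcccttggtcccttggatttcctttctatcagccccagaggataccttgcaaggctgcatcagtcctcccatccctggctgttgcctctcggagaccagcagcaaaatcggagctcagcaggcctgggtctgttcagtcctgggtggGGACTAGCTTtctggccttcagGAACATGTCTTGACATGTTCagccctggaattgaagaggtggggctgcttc
Ccng1: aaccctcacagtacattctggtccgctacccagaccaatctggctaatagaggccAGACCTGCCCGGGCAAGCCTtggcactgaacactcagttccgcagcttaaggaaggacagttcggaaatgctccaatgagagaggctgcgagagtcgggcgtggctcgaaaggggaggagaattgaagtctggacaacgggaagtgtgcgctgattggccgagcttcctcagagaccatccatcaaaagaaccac

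In Cdkn1a, 3 of these 10-base elements followed each other. The first and the second made a site with 0 mismatches and a spacer of 12 bases, and the second and the third made an overlapping site with 1 mismatch and no spacer that began 51 bases before the start. RefSeq gives more than 1 start for Cdkn1a, and these sites lay before the upstream one, while the window of the downstream one held none. In Ccng1 the site had no spacer and 1 mismatch, and it began 195 bases before the start. Windows from 250 bases before to 50 after the start were given for 8 of the 10 members (not for Trp53inp1 and Zmat3). A site with a spacer of up to 13 bases and at most 1 mismatch, with the C and G at the core of each element intact, was present in 2 of these 8 genes (25%). Over all 27025 genes with a window it was present in 194 (0.718%), and over the other p53 targets listed below in 2 of 32 (6.25%), Pml and Rps27l. With 2 mismatches allowed, a setting added after the data were seen, Bax joined them (3 of 8 genes, 37.5%, beside 4.71% of all genes). The consensus reads the same on both strands, so a single pass covered both. A match describes the letters of this window only, and introns, where p53 is known to bind several of its targets, were not searched.

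Depth, estimated from the spacing of the low values, was 5543755 to 22142300 reads over the 26 libraries used. The early limb buds were the deepest and the E10.5 limb buds the least deep, and a floor of 3 reads corresponded to 0.135 to 0.541 CPM, counting error only. CPM, the share of the reads of a library that fell on a gene, put on the same total for every library, is given after scaling of the libraries to each other. Replicate 2 of the E10.5 HLB was left out because nearly all genes of chromosomes 5, 6, 7, 8, 9, X and Y were listed at 0 in it, Bbc3, Bax and Eda2r among them, so E10.5 HLB has n = 2 and every other group n = 3. Nothing in the labels says whether replicates came from separate cultures or embryos, so p-values measure the spread between these libraries, which may be technical. Fold changes are on the log2(CPM + 0.5) scale and were tested with limma in 1 model over the 26 libraries, with Benjamini-Hochberg adjustment over the 14432 genes. This scale understates the change of low genes. Ratios of means are of CPM over libraries and can differ from the log2 fold changes, which average the groups on the log scale.

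The ES-LBs held more RNA of 8 of the 10 genes than any embryonic library. For Cdkn1a, Trp53inp1, Mdm2, Ccng1, Bbc3, Eda2r, Zmat3 and Sesn2 the lowest of the 6 ES-LB libraries lay above the highest of the 20 embryonic ones. Among all genes tested, 11.8% had this order. Because the genes were picked with such results known, the differences between ES-LBs and embryonic tissues are given as a description, and no p is attached to them.

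**Figure D1:**
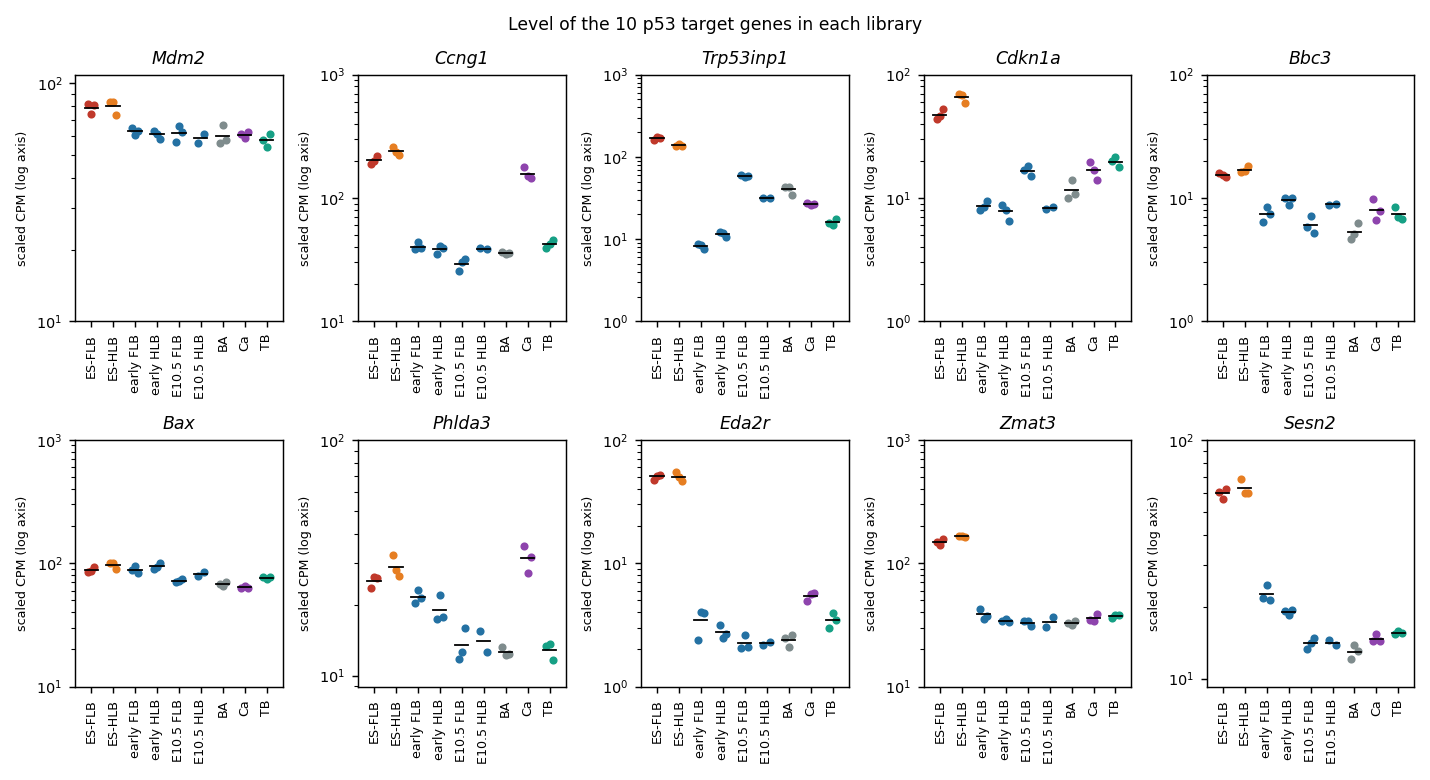
Level of each of the 10 genes (scaled CPM, log axis) in each of the 26 libraries, by group; points are libraries and bars are group means. The red and orange points of ES-FLB and ES-HLB stand above all embryonic points in 8 panels, and in those of Bax and Phlda3 they overlap them.

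Mdm2, the ligase that limits p53, was among the steadiest of the genes. It was at 81.4, 73.9 and 80.8 CPM in the 3 ES-FLB libraries and at 83.5, 83.0 and 73.3 CPM in ES-HLB. The 20 embryonic libraries lay between 53.7 and 66.7 CPM, with a median of 61.0 CPM. The ES-LBs were thus above every embryonic library, by a log2 difference of 0.38 (SE 0.04) from the 4 limb bud groups. The 7 embryonic group means, between 57.5 and 62.7 CPM, differed by a factor of 1.09 at most, and the libraries of every embryonic group overlapped those of its neighbour in that order.

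Ccng1 encodes cyclin G1, which acts in the same loop by directing a phosphatase to Mdm2. It was at 190, 197 and 217 CPM in the ES-FLB libraries and at 256, 235 and 224 CPM in those of ES-HLB. Heart tissue came next, with 177, 150 and 146 CPM. The other embryonic libraries were at 25.7 to 45.4 CPM, so both the ES-LBs and the heart stood apart from them. The mean of the ES-LBs was 6.03 times that of the limb buds (log2 fold change 2.57, SE 0.05).

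Trp53inp1, which encodes a nuclear protein that promotes p53 phosphorylation and also acts in autophagy, was at 160, 174 and 168 CPM in the ES-FLB libraries and at 136, 141 and 137 CPM in ES-HLB. In the limb buds it was at 8.70, 8.57 and 7.62 CPM in early FLB, 12.3, 11.9 and 10.7 CPM in early HLB, 59.3, 56.5 and 59.0 CPM in E10.5 FLB, and 31.8 and 31.4 CPM in E10.5 HLB. BA was at 43.4, 42.9 and 34.0 CPM, Ca at 27.7, 26.1 and 26.8 CPM and TB at 15.6, 15 and 17.5 CPM. It was the member that varied most in the embryo, by a factor of 7.02 between the lowest and the highest group mean. From ES-FLB down to early FLB, no group's libraries overlapped those of the next. The ES-LB mean was 5.64 times the limb bud mean. The log2 fold change, which averages the groups on the log scale, was 2.85 (SE 0.05). For ES-FLB it was 4.25 against early FLB and 1.51 against E10.5 FLB. For ES-HLB it was 3.52 against early HLB and 2.11 against E10.5 HLB.

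Cdkn1a encodes p21, the inhibitor of cyclin-dependent kinases through which p53 halts the cell cycle. Its values were 43.8, 45.9 and 52.2 CPM in the ES-FLB libraries and 70.1, 68.1 and 58.9 CPM in ES-HLB. TB had 19.96, 21.3 and 17.9 CPM, Ca 19.5, 17.0 and 14.1 CPM, E10.5 FLB 16.9, 18.2 and 14.9 CPM, and BA 10.003, 14.1 and 10.8 CPM. Early FLB was at 8.03, 8.52 and 9.45 CPM, E10.5 HLB at 8.17 and 8.48 CPM, and early HLB at 8.79, 8.03 and 6.50 CPM. The order was therefore ES-HLB, ES-FLB, then TB, Ca and E10.5 FLB with overlapping libraries, then BA, then the last 3 groups, which overlapped each other. The ES-LB mean was 5.36 times the limb bud mean (log2 fold change 2.44, SE 0.08).

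Of the genes of cell death, Eda2r differed most and Bax least. Eda2r, a receptor of the TNF receptor family that binds ectodysplasin A2, was at 47.7, 51.4 and 52.3 CPM in the ES-FLB libraries and at 54.7, 49.5 and 46.6 CPM in ES-HLB, against 2.04 to 5.74 CPM in the 20 embryonic libraries. The embryonic libraries were thus low throughout but above the floor of 3 reads, and the 3 heart libraries, at 4.95, 5.61 and 5.74 CPM, were the highest among them. The ES-LB mean was 18.5 times that of the limb buds (log2 fold change 4.03, SE 0.10). Per kilobase of exon, the level of Eda2r went from the lowest of the 10 genes in the limb buds (0.461 CPM per kb) to 8.55 CPM per kb in the ES-LBs.

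Bbc3 encodes PUMA, a BH3-only protein that frees the mitochondrial route of cell death. It was at 15.8, 15.2 and 14.7 CPM in the ES-FLB libraries and at 16.3, 16.5 and 18.1 CPM in ES-HLB, and at 4.61 to 9.98 CPM in the embryonic libraries (log2 fold change against limb buds 0.99, SE 0.09). Bax, the effector that opens the mitochondrial membrane, was at 85.2 to 101 CPM in the ES-LBs and at 63.2 to 99.9 CPM in the embryonic libraries. The ranges of Bax overlapped, and its ES-LB mean was 1.09 times the limb bud mean (log2 fold change 0.14, SE 0.04). Per kilobase of exon Bax had the highest level of the 10 genes in the limb buds, at 53.7 CPM per kb. GENCODE places another gene on the same strand over 915 bases of Bax that has no row of its own in the data. Overlaps are of whole genes, introns included, and reads from any shared exon cannot be told apart. An unlisted gene on the same strand likewise overlaps 6089 bases of Sesn2, whose exons total 3475 bases. An unlisted gene on the other strand overlaps 1046 bases of Cdkn1a.

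Phlda3, a repressor of Akt signalling, was at 23.6 to 32.3 CPM in the ES-LBs. Its highest embryonic values were those of the heart, at 35.3, 27.2 and 32.0 CPM, and the other embryonic libraries were at 11.7 to 23.1 CPM. The ES-LBs therefore lay above the limb buds (log2 fold change 0.68, SE 0.07) and mostly below the heart. Of the 6 ES-LB libraries, 2 fell within the range of the heart libraries and the others lay below it.

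Zmat3, a zinc finger protein that binds RNA, was at 149, 140 and 156 CPM in the ES-FLB libraries and at 166, 165 and 163 CPM in ES-HLB. All 20 embryonic libraries lay between 30.3 and 42.8 CPM, so Zmat3 was nearly as even across embryonic tissues as Mdm2 (highest over lowest group mean 1.18) but 4.49 times higher in the ES-LBs than in the limb buds (log2 fold change 2.16, SE 0.05). Sesn2 encodes sestrin 2, a leucine sensor that restrains mTORC1. It was at 60.7, 56.7 and 62.3 CPM in the ES-FLB libraries and at 68.3, 59.7 and 60.2 CPM in ES-HLB. In early FLB it was at 21.7, 24.6 and 21.4 CPM, in early HLB at 19.2, 18.5 and 19.5 CPM, and in all other embryonic libraries at 12.0 to 15.8 CPM. The early limb buds stood between the ES-LBs and the rest, and the ES-LB mean was 3.45 times the limb bud mean (log2 fold change 1.81, SE 0.05).

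Described by the log2 difference alone, with no test, all 10 genes lay higher in the ES-LBs than in the limb buds and 6 of them by 2-fold or more. Of all genes tested, 50.5% lay higher and 14.1% by 2-fold or more, and nothing is read from this contrast, since the genes were picked with it known. In ES-FLB the difference from early FLB was above 0 for 9 genes and that from E10.5 FLB for 10, and in ES-HLB it was above 0 for 10 genes against either stage. Bax was nearest to 0, at -0.01 in ES-FLB and 0.04 in ES-HLB against the early limb bud of the same type. The median difference of the 10 genes was 2.06 from BA, 1.71 from TB and 1.34 from Ca. Phlda3 was the gene below 0 against Ca, at -0.21.

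**Figure D2:**
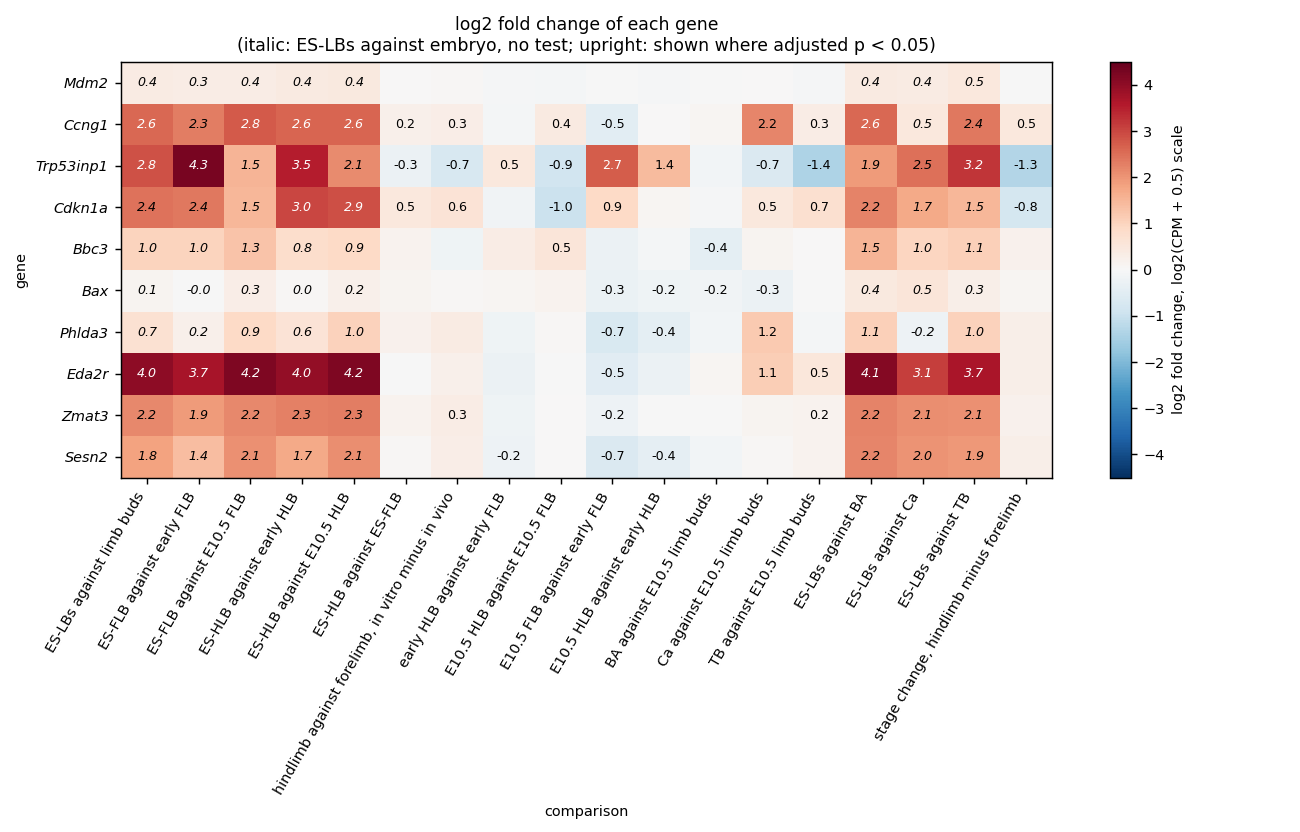
log2 fold change (colour, log2(CPM + 0.5) scale) of each of the 10 genes in each comparison; numbers in italics stand in every cell that sets ES-LBs against embryonic tissue, with no test, and upright numbers stand in other cells where the adjusted p was below 0.05. The italic columns are mostly red, led by Eda2r (4.03 against limb buds), while the comparisons within the embryo hold both signs.

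Other groups of cells were unequally present in the libraries. Markers of limb and lateral plate mesenchyme summed to 2290 to 2456 CPM in the ES-LBs and 1320 to 1733 CPM in the limb buds. Erythroid markers, among them Hbb-y, summed to 5.45 to 8.45 CPM in ES-FLB, 89.6 to 169 CPM in ES-HLB and 2320 to 6838 CPM in the limb buds, and endothelial markers to 19.9 to 37.4 CPM against 275 to 385 CPM. Markers of surface ectoderm summed to 93.0 to 191 CPM in the ES-LBs and 229 to 369 CPM in the limb buds, with Fgf8 near the floor in the ES-LBs at 0.541 CPM. Markers of pluripotent cells summed to 12.4 to 18.5 CPM in ES-FLB, 55.8 to 80.1 CPM in ES-HLB and 0.355 to 2.21 CPM in the limb buds. In Ca they summed to 11.7 to 15.2 CPM, which overlapped ES-FLB. All 6 of these markers were called higher in the ES-LBs than in the limb buds, beside 41.5% of all genes. In bulk RNA, fewer cells of a type and less RNA per cell cannot be told apart, and the part of these cells in the members' levels was not tested.

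Other p53 targets moved in both directions. Of 40 other known targets, 39 were tested, and 21 were called higher and 10 lower in the ES-LBs than in the limb buds (11 and 4 by 2-fold or more), against 41.5% and 40.8% of all genes (14.1% and 7.37% by 2-fold or more). Their median log2 fold change was 0.15, beside 0.01 for all genes tested. That of the 10 members, 1.99, cannot be set against these, since the members were picked with this contrast known. The list was written with earlier results known, and its counts describe these genes only. Most targets named below were taken for the largest changes in this same contrast, so no p is given for them.

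**Figure D3:**
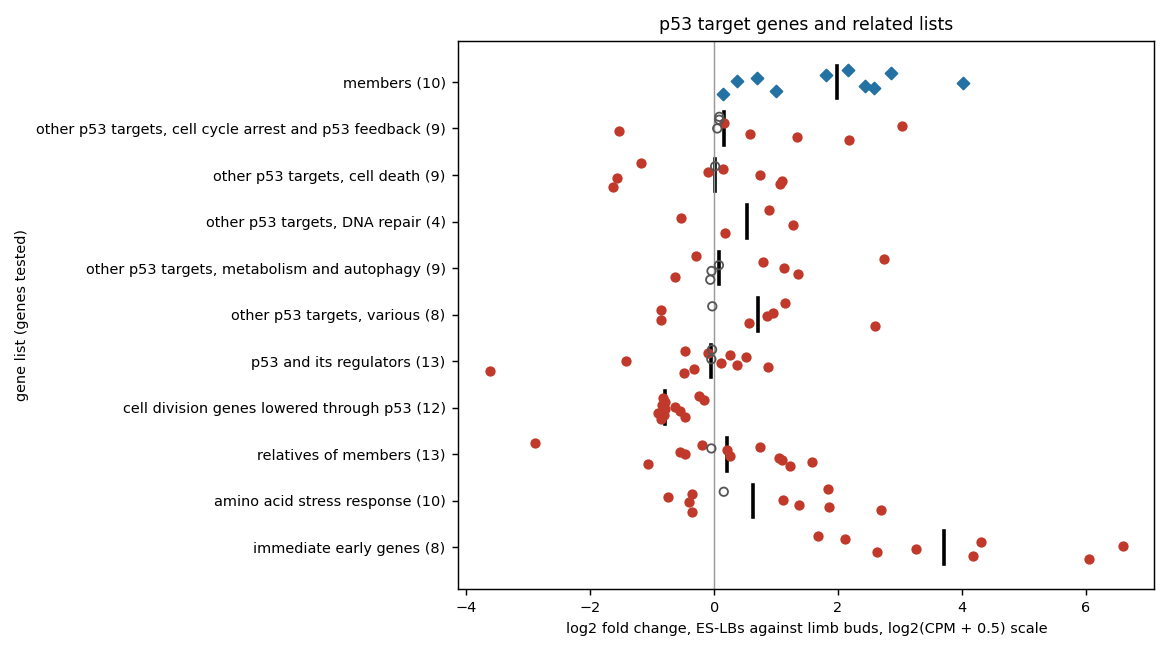
log2 fold change in ES-LBs against limb buds (x axis, log2(CPM + 0.5) scale) for the members and for lists of related genes; each point is a gene, the bar is the median, the members are blue diamonds without a test, and the other points are filled where the adjusted p was below 0.05. The members, picked with this contrast known, all lie above 0, and the other targets spread on both sides. The 12 cell division genes lie below 0 and the 8 immediate early genes above it.

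Of 9 other targets that arrest the cell cycle or feed back on p53, 5 were called higher and 1 lower, beside 41.5% and 40.8% of all genes. Rprm, which encodes the G2 arrest protein reprimo, was higher in the ES-LBs by a log2 fold change of 3.03 (SE 0.12). Its means were 16.7 CPM in ES-FLB, 63.7 CPM in ES-HLB and 1.41 to 5.19 CPM in the limb bud groups. Btg2, an antiproliferative gene, was higher by 2.17 (SE 0.08), although TB (74.6 CPM) and Ca (47.5 CPM) had means as high as the ES-LBs or higher (46.9 and 44.4 CPM). Plk2, a kinase of the polo family, was higher by 1.34 (SE 0.04). Sfn, which encodes the epithelial protein 14-3-3 sigma, was lower, with a log2 fold change of -1.53 (SE 0.30).

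Of 9 targets of cell death, 4 were called higher and 4 lower, near the shares of all genes (41.5% and 40.8%). Pmaip1, which encodes the BH3-only protein NOXA, had a log2 fold change of -1.63 (SE 0.18), and its level differed between the stages. It was at 109 CPM in E10.5 FLB and 57.4 CPM in E10.5 HLB, but at 3.20 and 3.61 CPM in the early limb buds, and the ES-FLB mean was 2.38 CPM and that of ES-HLB 10.4 CPM. Perp, which is also a desmosome gene of epithelia, fell by 1.56 (log2 fold change -1.56, SE 0.07), and Siva1, a proapoptotic gene, by 1.18 (-1.18, SE 0.04). Trp63, the relative of p53 that marks surface ectoderm and is known to act on Perp, was at 3.87 CPM in the ES-LBs and 53.5 CPM in the limb buds. The part of Trp63 or of surface ectoderm in the level of Perp was not tested.

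Among the remaining targets, 3 of 4 DNA repair genes were higher, led by the translesion polymerase gene Polk (log2 fold change 1.28, SE 0.07). The other, Rrm2b, was lower (-0.54, SE 0.09). The counts in this paragraph stand beside 41.5% of all genes called higher and 40.8% called lower. In metabolism and autophagy 4 of 9 were higher and 2 lower. Cpt1c, a carnitine palmitoyltransferase of the brain type, was higher by 2.74 (SE 0.08), at 51.4 CPM against 7.43 CPM in the limb buds. Of 8 targets of various function 5 were higher and 2 lower. Among those 8, and chosen after its values were seen, was Trp53cor1, the long noncoding RNA known as lincRNA-p21 that is transcribed next to Cdkn1a. It was at 1.95 to 4.33 CPM in the ES-LB libraries, 2.39 to 3.26 CPM in Ca, and 0 to 0.347 CPM in the limb buds, where it was not above the floor.

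The gene of p53 itself was lower in the ES-LBs. Trp53 was at 171 CPM in the ES-LBs and 240 CPM in the limb buds (log2 fold change -0.49, SE 0.03, limma adjusted p = 1.37e-15), and heart tissue had the lowest mean, 111 CPM. Mdm4, the partner of Mdm2 that blocks p53, was at 102 CPM against 56.4 CPM (0.87, SE 0.05, limma adjusted p = 1.17e-16). Of 13 tested genes of p53 and its regulators, 5 were called higher and 6 lower, beside 41.5% and 40.8% of all genes. Cdkn2a, which encodes the Mdm2 inhibitor ARF, did not pass the filter, and it was listed at 0 in all 11 limb bud libraries and averaged 0.556 CPM in the ES-LBs.

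Cell division genes that p53 and p21 are known to lower through the DREAM complex were all called lower in the ES-LBs, 12 of 12. Of all genes tested, 40.8% were called lower. The median log2 fold change of these 12 genes was -0.80. They included Ccnb1 (170 against 308 CPM) and Cdk1 (149 against 283 CPM). Their summed level was 1574 to 1681 CPM in the ES-LBs, 1628 to 1703 CPM in Ca, and 2151 to 2795 CPM in the limb buds, and the ranges of the ES-LBs and of Ca overlapped. All 8 immediate early genes tested were called higher by 2-fold or more, beside 14.1% of all genes. Their median log2 fold change was 3.72, with Fos at 117 against 1.80 CPM and Egr1 at 535 against 6.14 CPM. Summed, they reached 1106 to 1992 CPM in the ES-LBs and 153 to 193 CPM in the limb buds. Of 10 genes of the amino acid stress response, which is also known to raise Sesn2, 5 were called higher and 4 lower. The shares of all genes were 41.5% and 40.8%. Chac1 (6.47 against 0.594 CPM) was among the higher and Asns (71.7 against 95.6 CPM) among the lower. These lists too were written with earlier results known, and the part of these programmes in the members' levels was not tested.

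Relatives of the members that are not listed as p53 targets here were also mixed. Of 13, 7 were called higher and 5 lower, beside 41.5% and 40.8% of all genes. Ccng2, the paralogue of Ccng1, was at 122 CPM in the ES-LBs against 43.9 CPM in the limb buds (log2 fold change 1.59, SE 0.05), Cdkn1b (p27) at 66.0 against 28.0 CPM (1.22, SE 0.05) and Sesn3 at 82.1 against 40.0 CPM (1.09, SE 0.05). Cdkn1c (p57) went down, from 273 to 118 CPM (-1.07, SE 0.05), as did Bak1, the other effector of the Bax kind, from 83.3 to 56.0 CPM (-0.55, SE 0.04).

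Between the ES-LB types, 3 of the 10 genes were called, beside 19.7% of all genes. Cdkn1a was higher in ES-HLB, by 0.47 (SE 0.13, limma adjusted p = 0.00738), and so was Ccng1, by 0.24 (SE 0.08, adjusted p = 0.0268). Trp53inp1 was lower in ES-HLB, with a log2 fold change of -0.28 (SE 0.08, limma adjusted p = 0.0140). For all of these the 3 libraries of one type stood apart from the 3 of the other. Without ES-FLB replicate 2, or without ES-HLB replicate 1, the Ccng1 and Trp53inp1 calls were lost and 1 gene was left. The Ccng1 call was also lost without ES-FLB replicate 1 or ES-HLB replicate 2, and with limma without trend and robust estimation.

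The early HLB and early FLB differed in 2 members, beside 18.9% of all genes. Trp53inp1 was higher in the early HLB (0.46, SE 0.08, limma adjusted p = 7.91e-05). Sesn2 was lower (-0.24, SE 0.08, adjusted p = 0.0423), a call that was lost without either of the early FLB replicates 1 and 2 or without any 1 of the early HLB replicates. The effect of limb type in culture was set against that of the early limb buds, and it differed in 4 members, beside 19.9% of all genes. For Trp53inp1 the difference of the log2 fold changes, in vitro minus in vivo, was -0.74 (SE 0.12, limma adjusted p = 1.47e-05). Hindlimb was below forelimb for this gene in culture, above it in the early limb buds, and below it at E10.5 (log2 fold change -0.87). The difference was 0.62 for Cdkn1a (SE 0.18, adjusted p = 0.0120), 0.33 for Zmat3 (SE 0.10, adjusted p = 0.0227) and 0.31 for Ccng1 (SE 0.11, adjusted p = 0.0446). Only Trp53inp1 was called both in culture and in the early limb buds. Without early HLB replicate 3 the Cdkn1a, Zmat3 and Ccng1 calls were lost and 1 gene was left, and without ES-FLB replicate 2, which ended the Zmat3 and Ccng1 calls, there were 2. The Zmat3 call was also lost without early FLB replicate 1. The Ccng1 call was lost without any 1 of early FLB replicate 2, early HLB replicate 1, ES-FLB replicate 1 and ES-HLB replicates 1 and 2. In all, the Ccng1 call was lost in 11 of 22 alternatives, among them CPM as deposited, no filter on low values, the truncated library kept, and limma without trend and robust estimation. The Zmat3 call was lost in 4 of 22, CPM as deposited among them.

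At E10.5, the limb types differed in 4 members, beside 21.3% of all genes. The forelimb had more Cdkn1a (HLB against FLB -0.96, SE 0.14, limma adjusted p = 1.28e-05) and more Trp53inp1 (-0.87, SE 0.09, adjusted p = 2.94e-08), and the hindlimb had more Bbc3 (0.53, SE 0.16, adjusted p = 0.0186) and Ccng1 (0.41, SE 0.09, adjusted p = 0.00116). In each case the 3 FLB and the 2 HLB libraries stood apart. The Bbc3 call was lost without either HLB library or without E10.5 FLB replicate 3.

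From the early stage to E10.5, Trp53inp1 rose in both limbs. In the forelimb 8 members were called, beside 59.3% of all genes, with Trp53inp1 (2.74, SE 0.08, limma adjusted p = 6.10e-23) and Cdkn1a (0.90, SE 0.13, adjusted p = 2.77e-07) higher. Phlda3 (-0.68), Sesn2 (-0.67), Eda2r (-0.49), Ccng1 (-0.46), Bax (-0.29) and Zmat3 (-0.23) were lower. The stages were sequenced to unequal depth, and scaling mattered here: 3901 genes were called higher and 4660 lower, but 5717 higher and 2870 lower with CPM as deposited, which moved the median of all genes from -0.03 to 0.13. On that scale Eda2r, Bax and Zmat3 were not called and 5 members were. Eda2r was also lost without early FLB replicate 2 or 3, and Zmat3 without early FLB replicate 1 or E10.5 FLB replicate 3. In the hindlimb 4 members were called, beside 29.3% of all genes, with Trp53inp1 higher (1.41, SE 0.09, adjusted p = 3.88e-13) and Phlda3 (-0.43), Sesn2 (-0.42) and Bax (-0.21) lower. The call of Phlda3 was lost without early HLB replicate 2 or E10.5 HLB replicate 3, and that of Bax without early HLB replicate 3 or E10.5 HLB replicate 1.

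**Figure D4:**
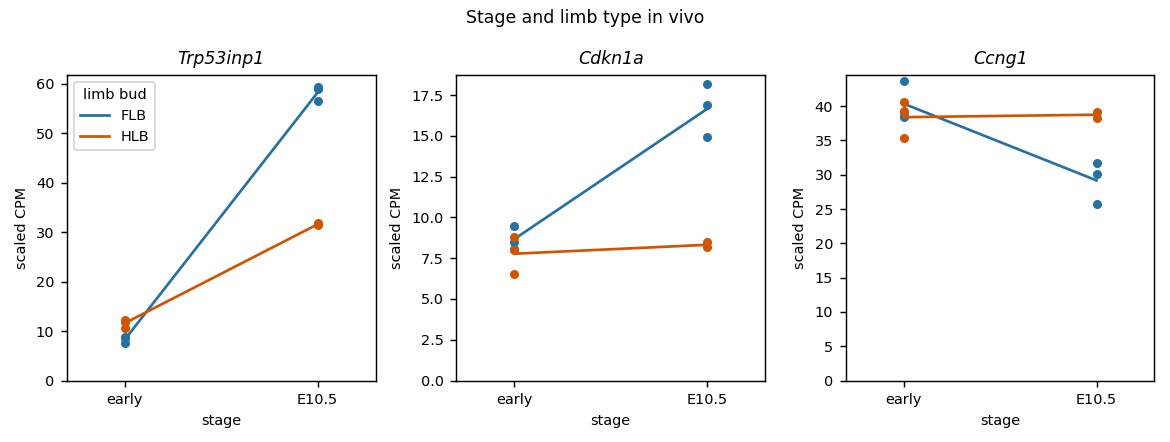
Level (scaled CPM, linear axis from 0) of Trp53inp1, Cdkn1a and Ccng1 in early and E10.5 forelimb buds (blue) and hindlimb buds (orange); points are libraries and lines join group means. Trp53inp1 rises from 8.30 to 58.2 CPM in the forelimb and from 11.6 to 31.6 CPM in the hindlimb, and Cdkn1a goes from 8.67 to 16.7 CPM in the forelimb and from 7.77 to 8.32 CPM in the hindlimb.

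The change between stages differed between the limbs for 3 members, beside 21% of all genes, in a comparison added after the values were seen. Hindlimb minus forelimb, the difference was -1.33 for Trp53inp1 (SE 0.12, limma adjusted p = 2.03e-09), -0.80 for Cdkn1a (SE 0.19, adjusted p = 0.00269) and 0.48 for Ccng1 (SE 0.12, adjusted p = 0.00382). The legend gives a shorter interval between the stages for the hindlimb, so limb type and interval cannot be told apart. Pmaip1, as given above, was another p53 target with higher means at E10.5 than at the early stage in both limbs. It was singled out after its values were seen, and stage counts of the other targets are not given here. Of the members, 6 were called lower at E10.5 in the forelimb and 3 in the hindlimb.

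Heart tissue differed from the E10.5 limb buds in 6 members, beside 76.7% of all genes. Ccng1 (2.21, SE 0.07, limma adjusted p = 2.04e-23), Phlda3 (1.17, SE 0.11), Eda2r (1.11, SE 0.15) and Cdkn1a (0.49, SE 0.11) were higher, and Trp53inp1 (-0.67, SE 0.07) and Bax (-0.27, SE 0.05) were lower. Heart muscle markers summed to 17653 to 20956 CPM in Ca and to at most 95.7 CPM in any other group. Erythroid markers were also highest there, at 24278 to 35280 CPM, and endothelial ones, at 737 to 778 CPM. Their part in these differences was not tested. The tail bud differed in 5 members, beside 45.9% of all genes. Cdkn1a (0.71, SE 0.11), Eda2r (0.52, SE 0.15), Ccng1 (0.32, SE 0.07) and Zmat3 (0.17, SE 0.07) were higher and Trp53inp1 (-1.40, SE 0.07) was lower, of which Zmat3 was lost without TB replicate 2 or 3, E10.5 FLB replicate 3 or E10.5 HLB replicate 1. In the branchial arch 2 members were called, beside 32.7% of all genes, both lower, Bbc3 (-0.43, SE 0.13) and Bax (-0.17, SE 0.05). Bbc3 was lost without BA replicate 1, and Bax without BA replicate 2 or E10.5 HLB replicate 3.

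The genes whose 9 group means followed those of Cdkn1a most closely were Neat1 (Pearson r = 0.987 over the 9 groups, among 10158 genes), Dmxl1 (0.980), Slc27a4 (0.977), Pfkfb2 (0.973) and Fcho2 (0.972). Neat1, a long noncoding RNA that builds paraspeckles, averaged 25.6 CPM in the ES-LBs and 2.33 CPM in the embryonic groups. Among the members, Eda2r ranked highest by this measure, at 124 of 10158 (r = 0.910), and Bax lowest, at 3593 (r = 0.232). These r describe group means that share the split between culture and embryo, and carry no test.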

How the data were processed

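Per the labels and the study's methods, the authors made stranded mRNA libraries from total RNA, read them as single ends, mapped them to mm10 with HISAT2 2.0.4, and obtained a count for each gene with Cuffdiff. The deposited values are CPM, each gene's share of the reads of a library on a common total, and were not treated as counts. The submitters' processing notes also name FastQC 0.11.5, Cufflinks 2.1.1 and edgeR 3.16.2, and the strand setting of the counting was not given in the sources used here.

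Groups were taken from the sample labels. Of 27 libraries, 26 were used. The spacing of low values gave the estimated depth of each (5543755 to 22142300 reads), and 92.3% to 98.9% of the values came out as whole reads within 0.02 read. A trimmed mean of log ratios without weights (30% of ratios and 5% of intensities trimmed) scaled the libraries, with factors of 0.891 to 1.08. Every gene that reached 1 CPM in 3 or more libraries entered limma 3.58.1 on log2(CPM + 0.5) (trend and robust) in R 4.3.3, with 1 mean per group and Benjamini-Hochberg adjustment. A gene was called at an adjusted p below 0.05, and a stricter count required a 2-fold change.

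Members and gene lists were chosen with earlier results of these data known. All 10 members, Trp53 and Mdm4 are named, with up to 5 other targets per direction among those past the stricter call with at least 5 CPM, and the 5 genes most like Cdkn1a among genes reaching 16 CPM in a group. Members of the other lists named beside these were chosen after their values were seen. Exon lengths and overlaps of genes were taken from GENCODE on GRCm38, and gene positions and promoter windows from RefSeq. Tables and figures were made with Python 3.11.15, pandas 2.3.3 and matplotlib 3.10.9.

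Alternatives were CPM as deposited, median of ratios scaling, pseudocounts of 0.1 and 2 CPM, no filter or 5 CPM, the compared groups alone, a replicate block, limma without trend and robust, the truncated library with its lost values missing, and each library left out in turn. Tests for raw counts were not run, since the values are CPM.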

Additional observations from a re-analysis of the deposited data

Results flagged for a closer look

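The effect of limb type differed between culture and the early limb buds, by a test of the difference itself, for 4 members, beside 19.9% of all genes. Limb type and stage cannot be told apart in the early limb buds. In vitro minus in vivo, the difference of log2 fold changes was -0.74 for Trp53inp1 (SE 0.12, limma adjusted p = 1.47e-05), 0.62 for Cdkn1a (SE 0.18, adjusted p = 0.0120), 0.33 for Zmat3 (SE 0.10, adjusted p = 0.0227) and 0.31 for Ccng1 (SE 0.11, adjusted p = 0.0446). Of 22 alternatives, the Ccng1 call was lost in 11, that of Zmat3 in 4 and that of Cdkn1a in 1, and the number of members called ranged from 1 to 5. Trp53inp1 was higher in all 3 ES-FLB libraries than in all 3 ES-HLB ones and lower in all 3 early FLB than in all 3 early HLB ones. At E10.5 it was lower in the hindlimb (HLB against FLB -0.87), as in culture.

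The change from the early stage to E10.5 differed between the limbs for 3 members, beside 21% of all genes. This comparison was added after the values were seen. Hindlimb minus forelimb, the difference was -1.33 for Trp53inp1 (SE 0.12, limma adjusted p = 2.03e-09), -0.80 for Cdkn1a (SE 0.19, adjusted p = 0.00269) and 0.48 for Ccng1 (SE 0.12, adjusted p = 0.00382). Stage intervals differ between the limbs and cannot be told apart from limb type.

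Groups of 3 libraries are too small for a test of single outlying libraries, and none was made.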

How the results depend on the processing

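Differences of the members between ES-LBs and embryonic tissue are a description and are left out here. Of 41 other member changes called, 0 reversed in 713 values under alternatives, 657 kept their call and 56, of 15 changes, lost it. The number of other p53 targets called higher was 17 to 24 (21 as reported). With CPM as deposited, members called fell from 8 to 5 for E10.5 FLB against early FLB, from 4 to 2 for the effect of limb type in vitro minus in vivo, and from 2 to 1 for BA, and the median of all genes in ES-LBs against limb buds moved from 0.01 to 0.15. For early HLB against early FLB the count went from 2 to 1 with the compared groups alone and to 1 with the truncated library kept. Leaving out 1 library at a time gave 1 to 4 members for ES-HLB against ES-FLB, 1 to 5 for in vitro minus in vivo, 1 to 2 for the early limb types and 1 to 2 for BA. The cause of these losses was not tested.

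Replicate numbers recur across groups. Taken over all groups, same-numbered libraries did not deviate together (r from -0.088 to 0.126 over 100 pairs, median 0.02, against -0.165 to 0.155 for other numbers). Some pairs of groups had only positive r and others only negative r. Whether some same-numbered libraries share embryos or cultures cannot be told from these few pairs. With the replicate number as a block, the counts of members called were as reported in every comparison, among them 3 for ES-HLB against ES-FLB and 4 for in vitro minus in vivo. Depth limits genes near the floor, such as Trp53cor1 and Cdkn2a in the limb buds.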
